A study of Mus musculus with 24 samples.

Results

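The complement genes expressed in the mouse left ventricle were followed here in hypertensive left ventricular hypertrophy (LVH). The 9 members were chosen by gene symbol, as 7 complement components (C1qa, C1qb, C1qc, C1ra, C1s1, C3 and C4b) and the 2 anaphylatoxin receptors C3ar1 and C5ar1, and all 9 were among the 14912 genes of the table. The rule itself used symbols and no measured value. The hypertensive-LVH group held 12 left ventricles of wild-type male C57BL/6J mice that received angiotensin II (ANG II), a peptide hormone that raises blood pressure, at 1500 ng/kg/min for 7 days from osmotic mini-pumps under the skin. The control group held 12 left ventricles of mice of the same genotype and strain that received saline from such pumps for the same time, and the study asked which immune genes respond to this hypertension. No age was given in the sources used here. A further 4 samples of each group are described in the study and were not analysed here. Whole ventricular tissue was sequenced after the blood had been flushed from the heart, so the values are averages over all its cells.

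Complement is a cascade of plasma and tissue proteins that marks targets for uptake and recruits leukocytes. The classical route starts with C1, in which the recognition molecule C1q, built from the A, B and C chains, binds a target and activates the serine proteases C1r and C1s, which then cleave C4 and C2. Every route leads to cleavage of C3, and the small fragments C3a and C5a that are released act on the receptors C3aR1 and C5aR1 of myeloid cells. Most C1q is made by macrophages rather than by the liver, whereas C3, C4, C1r and C1s are made in the liver and also by fibroblasts and other cells of many tissues.

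Expression is given as FPKM, the fragments of a gene scaled to the length of its transcript and to the mapped fragments of the sample, as deposited. Read counts were not used here, so the depth behind each value is unknown. A negative sign on 2741 values (0.766%) and exact ties between samples showed that genes had been shifted and scaled in 4 sets. The first held samples 1 to 3 of each group, the next 4 to 6, then 7 to 9, and the last 10 to 12. The labels do not say what these sets are. For 13606 genes (91.2%), all 9 members among them, the spacing of the values was that of a step that used the group labels. In it, 1 group difference shared by the sets was set aside, the remainder shifted and scaled, and the difference added back. For C1qa that difference was 56.2 FPKM. The tests on deposited values below do not allow for this step. Only 3 negative values fell among the members, all of C4b. Summed over all genes, the values came to between 460715 and 515185 under ANG II and between 482319 and 567727 under saline. Markers of heart muscle cells summed to at least 31728 FPKM in every sample, as a ventricle would give, although the extraction text of the labels names another cell type. Only 1 hepatocyte marker, Ttr, was tested, and it lay at 0.73 FPKM or less.

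The 3 chains of C1q were higher in the hypertensive-LVH group. C1qa (chromosome 4, 136895917 to 136898803, minus strand, GRCm38), which encodes the A chain, lay between 67.5 and 205 FPKM (median 115) under ANG II, and between 50.2 and 112 FPKM (median 71.7) under saline. The groups overlapped, with 6 of 12 hypertensive-LVH samples above the highest control and 11 of 12 above the control median. The mean was 124.9 ± 43.5 FPKM (SD, n = 12) against 77.9 ± 22.0 (SD, n = 12), a log2 fold change of 0.65 ± 0.17 (SE) with an adjusted p of 0.00525 in limma. Fold changes and their limma tests are on the log2(FPKM + 1) scale with negative values at 0, which understates the change of genes with low values, and p-values were adjusted by Benjamini-Hochberg over all 14026 genes tested.

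C1qb, the B chain, gave 67.6 to 195 FPKM (median 109) under ANG II and 43.1 to 107 (median 67.3) under saline. All 12 hypertensive-LVH samples lay above the control median and 6 lay above the highest control, and the log2 fold change was 0.74 ± 0.17 with an adjusted limma p of 0.00232. C1qc, the C chain, gave 50.2 to 163 FPKM (median 98.9) against 40.2 to 94.8 (median 62.0). Here 7 of 12 hypertensive-LVH samples exceeded the highest control, and the log2 fold change was 0.61 ± 0.18 with an adjusted limma p of 0.0095. In whole tissue, a change in the number of cells that make a transcript and a change in the transcript per cell cannot be told apart. The 3 genes lie side by side within 18675 bases on the minus strand of chromosome 4, with C1qb at 136880129 to 136886187 and C1qc at 136889804 to 136893065.

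The 250 bases before the RefSeq start sites (GRCm38.p6) of both C1q genes that could be matched are shown because these neighbours move together, beside those of C1ra and C3, which followed a different course across the samples. All are written 5′ to 3′ on the strand of the gene, for C1qb chr4:136886201-136886450, for C1qc chr4:136892915-136893164, for C1ra chr6:124512371-124512620 and for C3 chr17:57228137-57228386. Capitals mark GAGGAA, the core bound by the myeloid factor PU.1, or its reverse complement.
C1qb: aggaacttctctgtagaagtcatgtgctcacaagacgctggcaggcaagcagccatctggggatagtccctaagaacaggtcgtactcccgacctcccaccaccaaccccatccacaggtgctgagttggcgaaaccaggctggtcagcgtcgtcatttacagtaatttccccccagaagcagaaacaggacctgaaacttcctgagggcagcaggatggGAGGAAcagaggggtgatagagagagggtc
C1qc: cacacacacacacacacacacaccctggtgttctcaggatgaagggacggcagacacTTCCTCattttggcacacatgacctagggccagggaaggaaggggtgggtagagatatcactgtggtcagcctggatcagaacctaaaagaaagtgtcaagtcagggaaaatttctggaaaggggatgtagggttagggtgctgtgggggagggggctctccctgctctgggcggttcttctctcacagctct
C1ra: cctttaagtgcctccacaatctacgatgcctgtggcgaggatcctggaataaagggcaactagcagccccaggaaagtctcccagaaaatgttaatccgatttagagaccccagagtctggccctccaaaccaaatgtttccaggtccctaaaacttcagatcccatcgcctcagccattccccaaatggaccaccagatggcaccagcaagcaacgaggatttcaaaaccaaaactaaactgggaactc
C3: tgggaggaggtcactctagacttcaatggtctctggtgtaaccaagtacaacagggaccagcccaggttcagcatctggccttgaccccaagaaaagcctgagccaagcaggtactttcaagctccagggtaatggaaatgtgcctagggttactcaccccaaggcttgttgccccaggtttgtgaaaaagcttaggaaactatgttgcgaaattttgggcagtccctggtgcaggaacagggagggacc
The core began 30 bases before the C1qb start, and its reverse complement TTCCTC began 193 bases before the C1qc start. It was present on either strand in 23.3% of 32851 promoters of the same length. Promoters of 7 of the 9 members were matched, all but C1qa and C4b, and those of C1ra, C1s1, C3, C3ar1 and C5ar1 held no match. The core of the interferon-stimulated response element, found in 2.98% of promoters on either strand, had no match in the 7 genes. These are matches of letters in short windows and were not tested for any link with expression. Some RefSeq starts differ from the gene positions of GENCODE given here. Several windows, among them those of C1qc and C1ra, therefore lie partly inside the genes as GENCODE places them.

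The C1 proteases were not called. C1ra (chromosome 6, 124512405 to 124523443, plus strand), the mouse C1r gene of this table, gave 7.11 to 32.2 FPKM (median 13.99) under ANG II and 2.30 to 14.8 (median 12.2) under saline. Its log2 fold change of 0.55 ± 0.25 had an adjusted limma p of 0.0884. C1s1 (124530345 to 124542359, minus strand), which encodes C1s and faces C1ra end to end across 6901 bases, ranged from 10.2 to 41.9 FPKM (median 18.0) against 4.27 to 19.2 (median 16.4), with a log2 fold change of 0.43 ± 0.22 and an adjusted limma p of 0.122. For both genes the lowest 3 values of all 24 samples were those of control samples 4 to 6, and the highest was that of hypertensive-LVH sample 6. The close copies C1rb and C1s2 were not analysed here, and how reads shared with them were assigned is not known.

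C3, on whose cleavage all routes converge, was the member with the highest mean in both groups and the least separated. C3 (chromosome 17, 57203970 to 57228136, minus strand) gave 59.0 to 303 FPKM (median 118) under ANG II and 21.1 to 178 (median 109) under saline. Only 2 hypertensive-LVH samples, 5 and 6, exceeded the highest control, and 7 of 12 lay above the control median. The means of 133 ± 66.0 and 102 ± 47.8 FPKM (SD, n = 12 each) gave a log2 fold change of 0.47 ± 0.31, a 95% interval from -0.18 to 1.11 and an adjusted limma p of 0.250.

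C4b (chromosome 17, 34728380 to 34743882, minus strand), which encodes mouse C4, gave 11.4 to 63.9 FPKM (median 21.3) in the hypertensive-LVH group. In the control group it gave -4.39 to 24.5 FPKM (median 18.2), and the negative values, -0.87, -1.73 and -4.39, were those of control samples 4, 5 and 6. The log2 fold change of 1.37 ± 0.55 had an adjusted limma p of 0.0569. It rests on those 3 values being set to 0, and came to 2.19 with a pseudocount of 0.1 and to 0.020 without samples 4 to 6. In all, 3 hypertensive-LVH samples exceeded the highest control. Those were samples 4, 5 and 6. C4a, a near-identical neighbour whose reads can be confused with those of C4b, was listed between -0.01 and 0.17 FPKM in all samples and fell under the minimum mean of 0.1 for testing.

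Both anaphylatoxin receptors were expressed at a low level and were higher in the hypertensive-LVH group. C3ar1 (chromosome 6, 122847138 to 122856161, minus strand), the receptor of C3a, gave 2.15 to 10.0 FPKM (median 4.15) under ANG II and 1.14 to 3.68 (median 2.67) under saline. Of its 12 hypertensive-LVH samples, 8 exceeded the highest control, the most for any member, and the log2 fold change was 0.67 ± 0.19 with an adjusted limma p of 0.00743. C5ar1 (chromosome 7, 16246743 to 16259540, minus strand), the receptor of C5a, ranged from 3.98 to 11.2 FPKM (median 6.75) against 2.62 to 6.56 (median 4.65). Its adjusted limma p was 0.0187, with 6 of 12 hypertensive-LVH samples above the highest control. Its log2 fold change of 0.4993 ± 0.16 fell just under the threshold of 0.5 used by the study for a call.

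**Figure D1:**
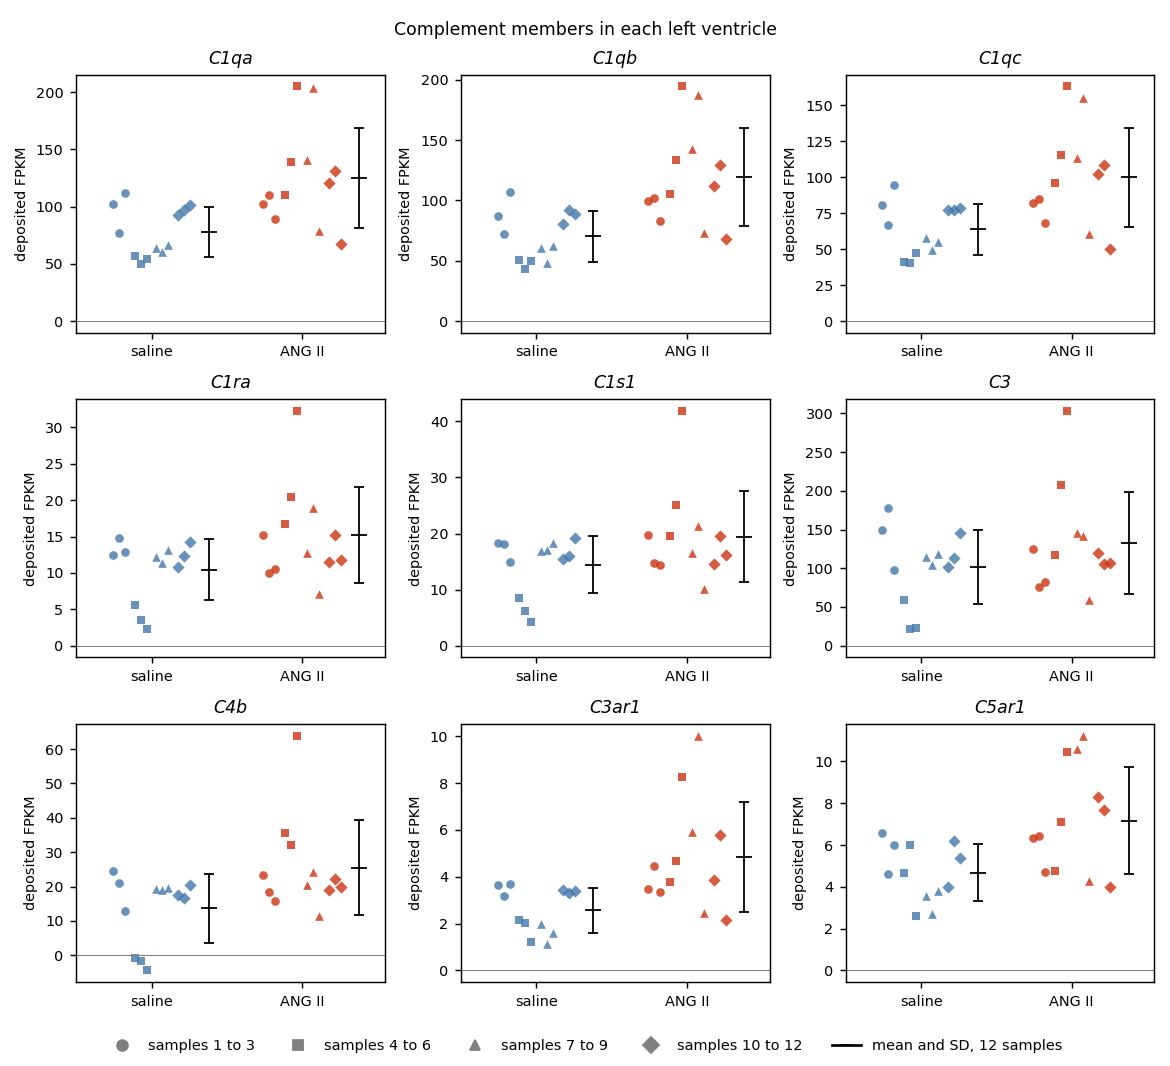
Deposited FPKM of the 9 members (vertical axis, a scale for each gene) in the 12 control samples (saline, blue) and the 12 hypertensive-LVH samples (ANG II, red); the marker shape gives the set of samples, and the black bar the mean and SD of 12 samples. Control samples 4 to 6 (squares) are the 3 lowest controls for C1qa, C1qc, C1ra, C1s1, C3 and C4b, and 6 hypertensive-LVH samples stand above every control for C1qa, C1qb, C1ra, C1s1 and C5ar1.

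With a call at an adjusted limma p under 0.05 and an absolute log2 fold change over 0.5, 4 of the 9 members were called, all higher: C1qa, C1qb, C1qc and C3ar1. Of all 14026 genes tested, 4.52% were called higher. All 9 members had a log2 fold change above 0, as had 63.8% of all genes, and the median log2 fold change was 0.61 over the members and 0.05 over all genes. Leaving out hypertensive-LVH sample 9, which was the lowest of its group for C1ra, C1s1, C3 and C4b, raised the count to 7, with C1ra, C4b and C5ar1 added (5.2% of all genes higher). Leaving out any other single sample gave 4 to 6 members, and the share of all genes is not given here for those fits.

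The difference between the groups was not of one size in the 4 sets of samples, and this was tested directly. In an F test of group by set with limma, 7 of the 9 members were called, against 7.49% of all genes, and the adjusted p was 1.19e-09 for C4b, 7.59e-04 for C1ra, 0.00107 for C1s1, 0.00231 for C3 and between 0.0404 and 0.0425 for the C1q chains. C3ar1 (adjusted p = 0.102) and C5ar1 (adjusted p = 0.324) were not called by this limma test, which does not show that their differences were equal. With quantile normalization the 3 C1q chains were no longer called, leaving 4 members (3.81% of all genes).

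Samples 4 to 6 carried the widest gaps for 7 members, all but the receptors. C1qa gave 110, 139 and 205 FPKM in hypertensive-LVH samples 4, 5 and 6, against 56.5, 50.2 and 54.5 in the controls of those numbers. C3 gave 117, 207 and 303 FPKM against 59.4, 21.1 and 23.3. C1ra gave 16.7, 20.5 and 32.2 FPKM against 5.61, 3.54 and 2.30. In each of these genes the groups were apart without overlap, and hypertensive-LVH sample 6 was the highest of all 24 samples.

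Over the members, every hypertensive-LVH value lay above every control value of samples 4 to 6 in 8 of 9 genes, all but C5ar1, as it did in 38.5% of all genes tested. A limma fit to samples 4 to 6 alone called the same 8 members higher, against 16.3% of all genes. The log2 fold changes there were 1.43 to 1.54 for the C1q chains, 2.33 for C1ra, 1.99 for C1s1, 2.62 for C3, 1.19 for C3ar1 and 0.63 for C5ar1. The value of 5.42 for C4b was computed against control values set to 0 and has no meaning as a fold. Control means in samples 4 to 6 were 3.82 FPKM for C1ra and 34.6 FPKM for C3. In the other sets they were 12.2 to 13.4 and 112 to 142 FPKM. The shift of a gene in a set could not be recovered, and fold changes within a set, here and below, depend on it.

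Samples 7 to 9 showed another division of the members. The C1q chains and the receptors were higher there, with C1qb at 142, 188 and 73.3 FPKM in the hypertensive-LVH group against 60.2, 48.4 and 62.4 in the control group. C3ar1 gave 5.90, 10.0 and 2.45 FPKM against 2.00, 1.14 and 1.60. C5ar1 gave 10.6, 11.2 and 4.28 FPKM against 3.58, 2.67 and 3.78. For these 5 genes the groups did not overlap, against 10.2% of all genes, and their log2 fold changes lay between 0.91 and 1.32.

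C1ra, C1s1, C3 and C4b differed little in samples 7 to 9, with log2 fold changes of -0.02, -0.17, -0.07 and -0.10. C3, for example, gave 146, 142 and 59.0 FPKM in the hypertensive-LVH group against 115, 104 and 118 in the control group. Hypertensive-LVH sample 9 was again the low one. In a limma fit to these 6 samples 0 members were called (2.05% of all genes were called higher), while 5 had an unadjusted p under 0.05.

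In samples 1 to 3 and 10 to 12 the groups overlapped for every member, while 6.97% and 10% of all genes had every hypertensive-LVH value above every control value. Log2 fold changes ran from -0.57 for C3 to 0.10 for C1qb in samples 1 to 3, and from -0.10 for C3 to 0.27 for C5ar1 in samples 10 to 12. Limma fits to each of these sets called 0 members, with 0 at an unadjusted p under 0.05, and called 0% and 0.0713% of all genes higher. C3 in samples 1 to 3 was 125, 75.9 and 82.6 FPKM in the hypertensive-LVH group against 149, 178 and 97.4 in the control group.

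**Figure D2:**
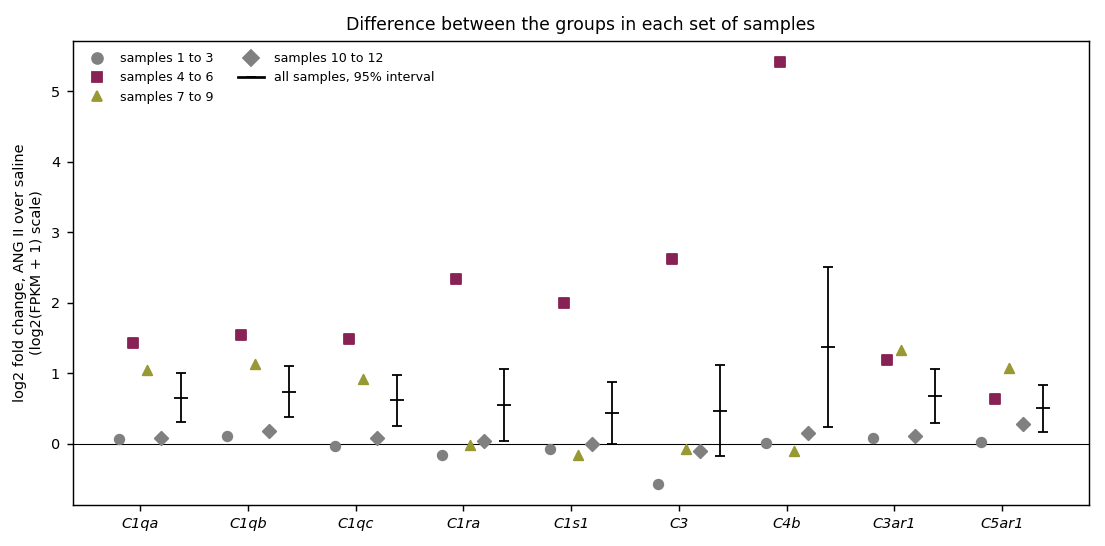
Log2 fold change of each member, hypertensive-LVH over control on the log2(FPKM + 1) scale (vertical axis), in each of the 4 sets of 3 against 3 samples (coloured and grey markers, without error bars) and in all samples (black, with the 95% interval of limma). C1ra, C1s1, C3 and C4b stand high in samples 4 to 6 alone, whereas the C1q chains and the receptors are also higher in samples 7 to 9; the C4b point at 5.42 rests on control values set to 0.

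Comparing mice only within their set gave 5 calls. In an exact two-sided permutation test of the mean difference in deposited FPKM within the sets, with all 160000 relabelings, these calls stood against 16.6% of all genes called higher. They were C1qa (difference 47.0 FPKM, adjusted p = 0.0207), C1qb (48.9 FPKM, adjusted p = 0.0127), C1qc (36.2 FPKM, adjusted p = 0.0290), C3ar1 (2.29 FPKM, adjusted p = 0.0175) and C5ar1 (2.48 FPKM, adjusted p = 0.0468). The exact test did not call C4b (11.9 FPKM, adjusted p = 0.106), C1ra (4.75 FPKM, adjusted p = 0.133), C1s1 (5.03 FPKM, adjusted p = 0.183) or C3 (30.3 FPKM, adjusted p = 0.396). All relabelings were counted, but the adjustment within the sets had used the group labels. The labels were therefore not freely exchangeable in the deposited values, and these p-values are approximate.

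The differences within each set before the adjustment were recovered from the spacing of the values for all 9 members. C1qa differed by -7.08, 105, 78.5 and 11.4 FPKM in samples 1 to 3, 4 to 6, 7 to 9 and 10 to 12, and C3 by -76.9, 220, 28.1 and 7.97 FPKM. All 9 members were lower in the hypertensive-LVH group in samples 1 to 3 and higher in the other 3 sets. On the deposited values, 4 members had a higher mean FPKM in the hypertensive-LVH group in samples 1 to 3. The division in samples 7 to 9 was not the same as after the adjustment: there the groups were apart for 4 members, the 3 C1q chains and C4b (6.28 FPKM), and no longer for C3ar1 and C5ar1, whose differences were 4.85 and 5.73 FPKM. C4b was also apart in samples 10 to 12 (5.86 FPKM). For values before the adjustment, the share of all genes that were apart, higher or lower within a set is not given here. On these values the exact permutation test also called 5 members (17.9% of all genes higher), with C4b in (difference 17.0 FPKM, adjusted p = 0.0386) and C5ar1 out (adjusted p = 0.0698). Without samples 4 to 6, 0 members were called by limma (4 at an unadjusted p under 0.05, with 2.3% of all genes called higher) or by the exact permutation test on deposited values (2 at an unadjusted p under 0.05, with 6.16% of all genes called higher), and the fold change of C3 turned to -0.25. Without samples 7 to 9, limma called C1qa, C1qb and C4b (4.17%) and the exact permutation test called 0 members, with 5 at an unadjusted p under 0.05 (11.5%). Without samples 1 to 3 and without samples 10 to 12, limma called 5 members each time (6.38% and 5.29%) and the exact permutation test 5 and 3 (13.8% and 9.4%). On the values before the adjustment the exact permutation test called all 9 members without samples 1 to 3 (24.5%), and 0 without samples 4 to 6, 7 to 9 or 10 to 12 (6.15%, 6.74% and 9.62%), where 0, 3 and 6 members had an unadjusted p under 0.05.

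In both groups the order of the mean levels began with C3, C1qa, C1qb and C1qc and ended with C1ra, C5ar1 and C3ar1. C3 exceeded C1qa in 6 of 12 hypertensive-LVH samples and 9 of 12 control samples, by 7.61 ± 44.7 and 24.4 ± 39.2 FPKM (SD of the difference), so their order lay within the spread. C1qa exceeded C1qb in 10 and 12 of 12 samples, and C1qb exceeded C1qc in 12 and 11 of 12. C4b stood above C1s1 in 12 of 12 hypertensive-LVH samples, whereas in the control group the mean of C1s1 was higher by 0.787 ± 5.11 FPKM and C1s1 exceeded C4b in 4 of 12 samples, within the spread. C5ar1 exceeded C3ar1 in every sample of both groups.

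The C1q chains kept nearly fixed proportions. C1qa was 1.05 ± 0.03 times C1qb under ANG II and 1.11 ± 0.06 times under saline (SD, n = 12 each), and C1qb was 1.20 ± 0.07 and 1.10 ± 0.07 times C1qc. C1s1 was 1.30 ± 0.10 times C1ra in the hypertensive-LVH group and 1.45 ± 0.20 times in the control group. The ratio of C3 to C1qa was far less steady and turned between sets, at 1.34 against 0.633 in samples 4 to 6 and 0.825 against 1.77 in samples 7 to 9 (means of 3 hypertensive-LVH and 3 control samples). Gene-wise scaling within the sets touches such ratios, so they describe the deposited values.

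Variation among mice of one group and set was compared next, after the mean of each group in each set had been removed from the log2(FPKM + 1) values (n = 24 samples, 36 pairs of members, permutation within group and set, p adjusted over the pairs). The C1q chains were tied most closely, C1qa with C1qb at Pearson's r = 0.98 (Spearman's rho = 0.93, both adjusted permutation p = 0.00036, from a raw p of 1e-05, the smallest that 100000 resamples can give), and C1ra with C1s1 at r = 0.96 (rho = 0.91). C3ar1 followed C1qa (r = 0.91, rho = 0.80) and C5ar1 (r = 0.85, rho = 0.83). C3 went with C1s1 (r = 0.85, rho = 0.81, adjusted permutation p = 0.00352 and 0.00488) and C1ra (r = 0.84, rho = 0.76). With C1qa, C1qb and C1qc it gave r = 0.50, 0.51 and 0.41 and rho = 0.48, 0.43 and 0.35. Adjusted permutation p was 0.0867 to 0.149 for r and 0.0912 to 0.202 for rho. C1ra and C1s1 gave r = 0.53 to 0.68 with the C1q chains (adjusted permutation p = 0.0235 to 0.0902), and rho = 0.34 to 0.54 (0.0488 to 0.228). With C3ar1 and C5ar1 they gave r = 0.70 to 0.77 (adjusted permutation p = 0.0128 to 0.0279), and rho = 0.56 to 0.61 (0.0425 to 0.0623). Without the 2 samples that lay farthest from the first gene's median, r was 0.96 for C1qa with C1qb, 0.95 for C1ra with C1s1, 0.80 for C1s1 with C3 and 0.28 for C1qc with C3. The points share libraries and the composition of each ventricle.

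**Figure D3:**
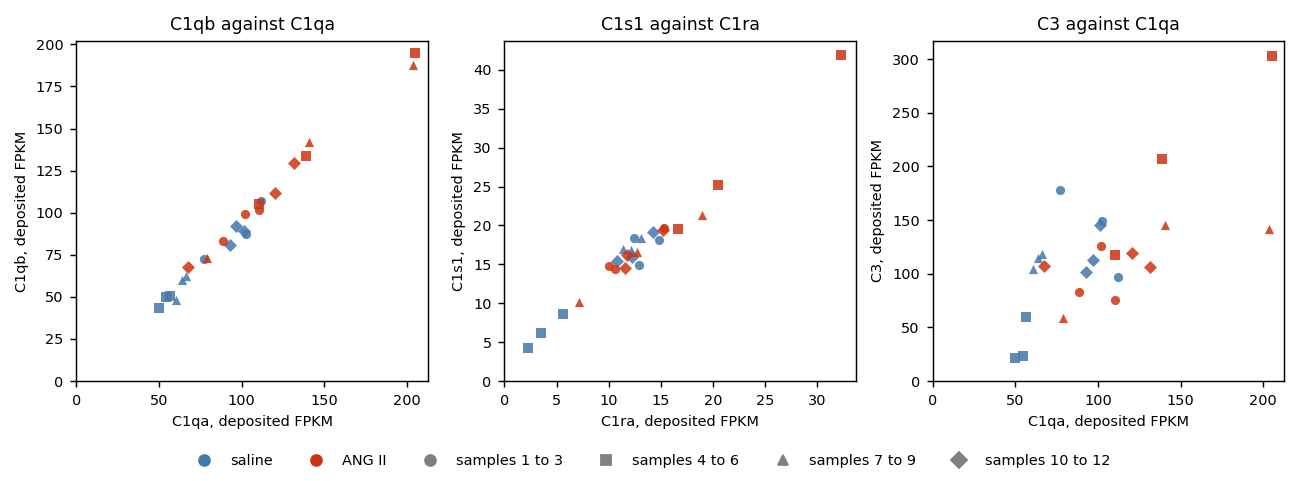
Deposited FPKM of C1qb against C1qa, C1s1 against C1ra and C3 against C1qa in each of the 24 samples (control blue, hypertensive-LVH red, marker shape for the set of samples). The first 2 pairs lie along a line through both groups, whereas C3 at a given C1qa level is lower in hypertensive-LVH samples 7 to 9 than in samples 4 to 6.

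Among 11458 genes with a mean of at least 1 FPKM, those that varied most like the mean of the C1q chains, by Pearson's r over the 24 residuals, were Cd52 (0.97), Csf1r (0.96), Fcer1g (0.96), Tmem106a (0.95) and Pld4 (0.95). Csf1r encodes the receptor for the macrophage growth factor CSF1, and Fcer1g the signaling chain of Fc receptors. For C1ra and C1s1 together they were Dram1 (0.91), Serping1 (0.91), Pip4k2a (0.91), Cd53 (0.90) and Ms4a6d (0.90), of which Serping1 encodes the inhibitor of C1r and C1s. C3 had C1s1 (0.85) and C1ra (0.84) first, then Ms4a6d (0.82), Gmip (0.81) and Adgrd1 (0.81). C4b had Arhgap30 (0.90), Myo5a (0.90), Shtn1 (0.88), Dock10 (0.88) and Mrc1 (0.88), the last a mannose receptor of macrophages.

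Of 47 other genes of the complement system, 36 were in the table and 29 reached the mean of 0.1 FPKM for testing. Limma called 7 higher and 1 lower, against 4.52% and 1.4% of all genes, and the median log2 fold change of the 29 was 0.23. At an adjusted limma p under 0.05 alone, 12 were higher and 3 lower, against 20.9% and 12.6% of all genes. By set, the median of the 29 was -0.03, 0.82, 0.12 and 0.05.

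Among the 5 tested genes that start the cascade, Masp1, a protease of the lectin pathway, rose from 6.08 ± 2.45 to 13.9 ± 3.37 FPKM (log2 fold change 1.12 ± 0.17, adjusted limma p = 4.11e-05). It was higher in each set, by 0.58, 1.42, 1.63 and 0.86 on the log2 scale. None of these genes was called lower, but Colec11 fell from 14.1 ± 2.84 to 10.2 ± 2.53 FPKM with an adjusted limma p of 0.00704. Its log2 fold change of -0.44 ± 0.12 fell short of the threshold, and by set it was -0.30, 0.17, -0.81 and -0.80. Of the 4 central components, Cfb, which encodes factor B of the alternative pathway, rose most, with a log2 fold change of 1.17 ± 0.36 and an adjusted limma p of 0.015, and it gave 0.349 to 16.3 FPKM against -1.91 to 4.23. Its log2 fold changes by set, 0.04, 3.24, 1.21 and 0.18, were highest in samples 4 to 6, as were those of C3, but control samples 4 to 6 held negative values of Cfb that were set to 0, so 3.24 has no meaning as a fold and enters the change over all samples. Properdin (Cfp), which stabilizes the alternative convertase, was the other called gene of the 4.

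Of 3 terminal components tested (C6, C7 and C8g) 0 were called by limma, and C6 alone had an unadjusted p under 0.05. Its adjusted p was 0.037, and its log2 fold change of 0.23 fell under the threshold. The gene of C5 itself, Hc, was listed at 0.01 to 0.11 FPKM in all samples and was not tested, although the C5a receptor was measured. Of 12 regulators, Clu, which encodes clusterin, an inhibitor of the terminal complex, rose most, from 674 ± 304 to 1702 ± 532 FPKM (log2 fold change 1.43 ± 0.24). Vtn, which encodes vitronectin, another such inhibitor, fell from 22.3 ± 3.57 to 13.1 ± 3.33 FPKM (log2 fold change -0.76 ± 0.12), and it was lower in each set, by -0.36, -0.37, -1.16 and -1.14. The other 10 regulators were not called. Of 5 receptors, 3 were called higher, with the largest change for Itgam, the alpha chain of complement receptor 3 (4.15 ± 1.75 against 1.91 ± 1.09 FPKM, log2 fold change 0.84 ± 0.19, adjusted limma p = 0.002), followed by its beta chain Itgb2 and by Vsig4.

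**Figure D4:**
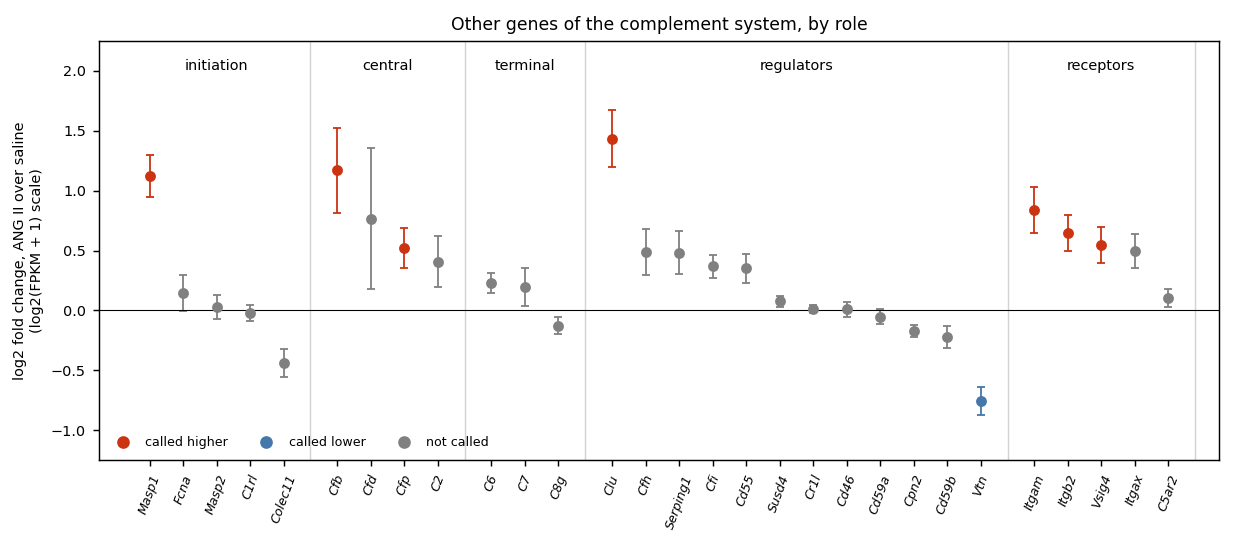
Log2 fold change ± SE of the 29 other complement genes tested, hypertensive-LVH over control on the log2(FPKM + 1) scale (vertical axis), grouped by role; red marks genes called higher, blue the gene called lower and grey those not called. Clu, Cfb and Masp1 stand highest, and Vtn is the gene called lower.

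Some markers of cell types that make complement were higher in the hypertensive-LVH group too. Of 13 macrophage markers 5 were called higher by limma, 11 had an adjusted p under 0.05 in that direction and 1, Timd4, in the other, and their summed level was 98.5 to 243 FPKM in the hypertensive-LVH group and 77.7 to 135 in the control group. Of 6 monocyte markers 3 were called higher, with a summed level of 3.56 to 39.5 against 0.57 to 9.29 FPKM. Of 8 fibroblast markers 4, Col1a1, Col1a2, Col3a1 and Lum, were called higher, with a summed level of 708 to 2639 against 142 to 1017 FPKM. Pdgfra, Dcn, Tcf21 and Dpt were not called (adjusted limma p = 0.072, 0.126, 0.304 and 0.164). Negative values counted as 0 in these sums, among them those of the 3 collagen genes in control samples 4 to 6. The part of these cell types in the differences of the members was not tested.

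The sets divided the marker lists too. The median log2 fold change of C1ra and C1s1 was -0.12, 2.16, -0.09 and 0.01 in samples 1 to 3, 4 to 6, 7 to 9 and 10 to 12. That of the fibroblast list was 0.14, 2.85, 0.15 and 0.24, but Col1a1, Col1a2 and Col3a1 were negative in control samples 4 to 6 and were set to 0. Without those 3 genes, left out after the data were seen, the median of the other 5 was -0.09, 1.40, -0.01 and 0.16. Single genes of the full fibroblast list ran from -0.18 for Dcn to 1.24 for Col1a1 in samples 7 to 9. The monocyte list, of which 5 of 6 genes held a negative value set to 0, gave 0.12, 0.59, 1.57 and 0.05, and the macrophage list, with 0 such genes, 0.07, 0.83, 0.39 and 0.15, beside 0.06, 1.49, 1.04 and 0.09 for the C1q chains. Of 6 neutrophil markers tested 0 were called by limma, with 1 at an unadjusted p under 0.05, and by set they gave -0.25, 0.42, 0.76 and -0.30. Cardiomyocyte markers gave -0.07, -0.42, -0.15 and -0.19, with 2 of 8 called lower and a summed level of 31728 to 45274 against 41700 to 52002 FPKM. All 5 red blood cell markers were called higher, with a summed level of 779 to 6443 against 92.2 to 2949 FPKM.

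Of 6 T cell, 4 B cell, 7 endothelial, 3 adipocyte and 5 mesothelial markers tested 0 were called by limma, with 5, 1, 2, 0 and 0 at an unadjusted p under 0.05. Of 8 smooth muscle and pericyte markers 2, Tagln and Cnn1, were called higher (log2 fold changes 1.32 and 1.02, both with negative control values set to 0) and 1, Kcnj8, lower (-0.58). Of 6 hepatocyte markers listed, 2 were in the table and only 1, Ttr, was tested. It reached at most 0.66 FPKM in the hypertensive-LVH group and 0.73 in the control group.

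**Figure D5:**
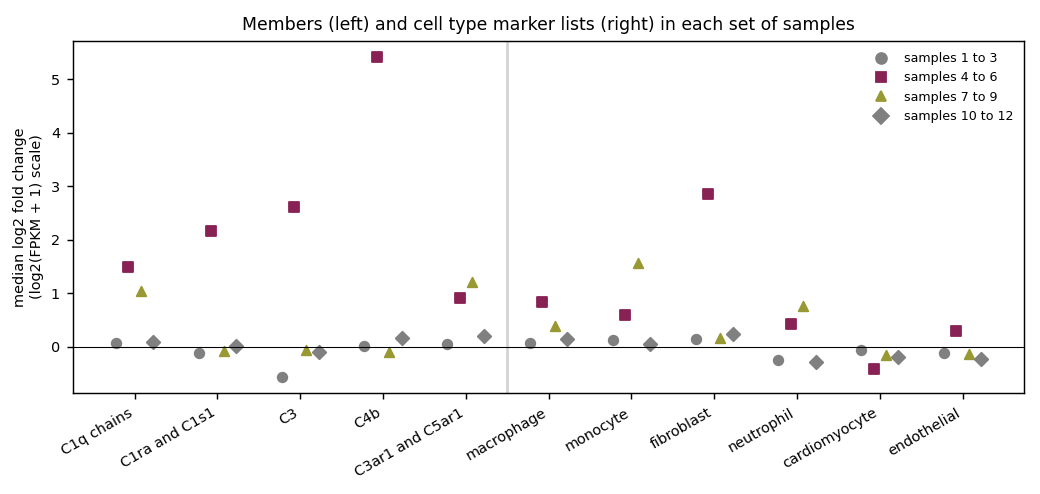
Median log2 fold change, hypertensive-LVH over control on the log2(FPKM + 1) scale (vertical axis), of groups of members (left of the line) and of cell type marker lists (right) in each set of 3 against 3 samples (marker shape and colour). The C1ra and C1s1 pair, C3, C4b and the median of the fibroblast list are high in samples 4 to 6 alone. There C4b and 3 fibroblast genes rest on control values set to 0. The C1q chains, the receptors, the macrophage list and the monocyte list are also higher in samples 7 to 9.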

How the data were processed

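Left ventricles of 12 hypertensive-LVH and 12 control mice were analysed. Per the labels and the study's methods, mRNA was selected with oligo(dT), and the submitters' processing notes name HISAT, Bowtie2 and RSEM without versions or roles. The genome build and strand setting are not given in the sources used here. The authors deposited 1 FPKM value per gene and sample; the values carry a further gene-wise shift and scale within 4 sets of samples, which the methods do not name and which was read from exact ties (218 to 546 genes per pair of samples within a set and group, at most 14 in other pairs). Differences before that adjustment were recovered for 13606 genes (91.2%) from steps of 0.01 FPKM. The model for this had 1 group difference, shared by the sets, set aside before the scaling and added back after it. The offset of a set cannot be recovered.

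With negative values at 0, log2(FPKM + 1) was fitted with limma 3.58.1 (R 4.3.3) with an intensity trend, over 14026 genes with a mean of at least 0.1. A call needed an adjusted p under 0.05 and an absolute log2 fold change over 0.5. Exact permutations within the sets used deposited FPKM with negative values kept. All tests were two-sided. The study's methods call the samples biological replicates, and the labels only number them. The members, the gene lists and the tests were chosen with earlier results of these data known. Named genes are the members, in each role the called complement gene with the largest change in each direction, close copies of members, the 5 genes most like each profile, and cell type markers; any other gene was named after its values were seen. Positions are from GENCODE vM21 (GRCm38). Read counts, the qPCR and the imaging of the study were not used here.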

Additional observations from a re-analysis of the deposited data

Results flagged for a closer look

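The difference between the groups was not of one size across the 4 sets of samples for 7 members, by limma's F test of group by set with p adjusted over all genes. The adjusted p was 0.0425 for C1qa, 0.0406 for C1qb, 0.0404 for C1qc, 7.59e-04 for C1ra, 0.00107 for C1s1, 0.00231 for C3 and 1.19e-09 for C4b. For each of the 7 the log2 fold change was highest in samples 4 to 6. For C4b, both the p and that fold change were computed with the control values of samples 4 to 6 set to 0. What the sets are was not given, and the cause was not tested.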

How the results depend on the processing

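Depth is unknown, C4b rests on control values at or below 0 in samples 4 to 6, and the offsets of the sets could not be recovered. The 4 members called by limma in all samples stayed at 4 or 5 with no filter, a pseudocount of 0.1, a least mean of 1, quantile normalization, median-ratio scaling, no intensity trend, negative values kept, no fold change threshold or the set as a term. Leaving out single samples gave 4 to 7 members and 6 to 12 of the other complement genes (8 in all samples), and 15 of those passed with no fold change threshold. With no fold change threshold 20.9% of all genes were called higher and 12.6% lower. For the other settings listed, and for most single samples left out, the shares of all genes are not given here. Without samples 4 to 6 limma called 0 members and 4 other complement genes, and the log2 fold changes of C1ra, C1s1 and C3 turned to -0.048, -0.087 and -0.25. Fits to single sets, added after the data were seen, called 0, 8, 0 and 0 members and 0, 15, 5 and 0 other genes in samples 1 to 3, 4 to 6, 7 to 9 and 10 to 12. There the fold changes that turned were -0.031 for C1qc, -0.17 for C1ra, -0.080 for C1s1 and -0.57 for C3 in samples 1 to 3, -0.016, -0.17, -0.072 and -0.10 for C1ra, C1s1, C3 and C4b in samples 7 to 9, and -0.012 for C1s1 and -0.10 for C3 in samples 10 to 12. Of the 5 members called by the exact permutation test, 0 were called without samples 4 to 6 or 7 to 9 and 3 without samples 10 to 12. Without samples 4 to 6 the differences of C1ra, C1s1 and C3 turned to -0.10, -0.79 and -17.9 FPKM. On values before the adjustment the test called 9 members without samples 1 to 3 and 0 without each of the other sets, and C3 turned to -13.6 FPKM without samples 4 to 6; these fits were added after the data were seen. The group by set count fell from 7 to 4 with quantile normalization. Same-numbered samples, which also share a set, correlated at -0.557 to -0.00109, with 0 of 12 pairs over 0.1 and 0 of 12 samples closest to their own number. The adjustment within the sets acts on these correlations, so they cannot decide whether the samples were paired. With the replicate block limma called 4 members (C1qa at an adjusted p of 0.0362) and 6 other complement genes. The sign-flip permutation within pairs called 0 members, with 5 at an unadjusted p under 0.05, while 1325 of 14026 genes were called higher. The cause of these shifts was not tested.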
